A study of Homo sapiens with 18 samples.

Results

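The genes described here are 10 parts of the Wnt pathway, namely the secreted Wnt inhibitors WIF1, DKK1, DKK3, SFRP1 and FRZB, the ligand WNT5A, the co-receptor LRP6, the destruction complex protein AXIN2, β-catenin (CTNNB1) and its nuclear partner LEF1. They were chosen by name, with earlier results of these data known. Their probe sets, groups of probes that read 1 transcript, were those annotated to exactly 1 of these genes, which gave 31 of the 41097 single-gene probe sets on the array and 10 of its 19775 genes. MNNG (the line MNNG/HOS) and 143B are established human osteosarcoma lines, and both were transduced with the fluorescent protein ZsGreen and grown as orthotopic bone tumors. PKH26 stains cell membranes and fades with each division, and sorted cells that kept the dye (High, labelled tumor-initiating cells or TICs) were profiled against cells that had lost it (Low, labelled bulk tumor cells). The labels give 150000 sorted cells for each High array and 700000 for each Low array. Dye fraction and number of cells therefore cannot be told apart in either line. The 18 arrays were 4 MNNG_High, 4 MNNG_Low, 3 143B_High, 5 143B_Low and 2 MNNG_Lung, the last from MNNG/HOS lung metastases. A pair of the 143B_High arrays each held a pool of 2 tumors (51&52 and 54&55). One lung array carries the number 1233 and the other is labelled Mix, and the sources used here give neither how the lung cells were isolated, nor the makeup of Mix, nor the ages of the animals.

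Wnt proteins are secreted lipid-modified ligands that bind Frizzled receptors, and in the canonical branch the co-receptors LRP5 and LRP6. Binding stops the destruction complex, built on AXIN and APC, from breaking down β-catenin, which then enters the nucleus and turns on genes together with LEF1 and the TCF factors. In bone the pathway drives osteoblast formation, and secreted inhibitors restrain it either by binding Wnt (WIF1 and the SFRP family, to which FRZB belongs) or by binding LRP6 (DKK1).

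Values are log2 signals, so a difference of 1 is a doubling, and since probe sets differ in how strongly they bind, no level is read here as more or less RNA than that of another gene. Over all probe sets, arrays of 1 bone tumor group correlated at 0.956 or higher, while the correlation of the lung pair was 0.865. The lung arrays had the narrowest spread of signal, with an interquartile range of 2.09 to 2.28 log2 against 2.76 to 3.18 in MNNG_High and 3.26 to 3.48 in the other bone groups. Mesenchymal and osteoblast markers averaged 8.57 to 8.75 per array in MNNG bone tumors, 7.52 to 8.53 in 143B and 7.31 to 7.96 in lung. Macrophage markers averaged 5.84 to 6.26 in MNNG_High, 5.19 to 5.34 in MNNG_Low, 5.31 to 5.66 in 143B_High, 5.04 to 5.21 in 143B_Low and 7.02 to 7.15 in lung, where lung epithelium markers also stood highest, at 6.75 to 6.89 against 5.43 to 6.03 on the bone arrays. Osteoclast (6.83 to 6.96), endothelial (5.94 to 6.24), skeletal muscle (5.87 to 6.25) and lymphocyte markers (6.52 to 6.75) stood highest in lung too. The higher marker signal was thus not limited to lung cell types. Within the lung epithelium list NKX2-1 was not above MNNG_Low, with means of 6.04 in lung and 6.40 in MNNG_Low. The arrays measure RNA per sample, so a smaller share of tumor cells and less RNA per cell cannot be told apart.

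The promoters of WIF1 and DKK1 are shown because, among the tested genes, WIF1 differed most between the lines and DKK1 most between bone and lung. RefSeq (GRCh38.p14) windows were found for 6 of the 10 genes, 7 windows in all, and each sequence is the 250 bases before the annotated start, 5′ to 3′ on the gene's strand. In DKK1, on the plus strand at chr10:52314031-52314280, capitals mark matches to the TCF/LEF motif, searched on both strands as CTTTG followed by A or T and then again by A or T. In WIF1, on the minus strand at chr12:65121306-65121555, capitals mark CpG dinucleotides, the sites of DNA methylation.
DKK1: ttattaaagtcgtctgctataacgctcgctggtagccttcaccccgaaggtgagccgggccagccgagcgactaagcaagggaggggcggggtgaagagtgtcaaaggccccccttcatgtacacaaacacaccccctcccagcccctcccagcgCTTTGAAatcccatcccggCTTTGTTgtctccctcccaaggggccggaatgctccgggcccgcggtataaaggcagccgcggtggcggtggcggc
WIF1: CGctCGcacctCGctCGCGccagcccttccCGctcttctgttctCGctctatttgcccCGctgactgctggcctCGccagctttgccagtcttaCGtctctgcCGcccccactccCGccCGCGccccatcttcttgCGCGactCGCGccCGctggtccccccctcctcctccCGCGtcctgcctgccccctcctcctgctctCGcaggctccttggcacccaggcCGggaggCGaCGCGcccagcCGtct
The DKK1 window held 2 matches, which begin at positions -95 and -76 from the start, and the other 6 windows held none. Of 35116 RefSeq windows of the same length, 4199 (12%) held at least 1. The WIF1 window held 27 CpGs against a median of 11 over all windows, and 84.1% of windows held as many or fewer. The matches are letters in a window, and neither binding nor methylation was measured.

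**Figure D1:**
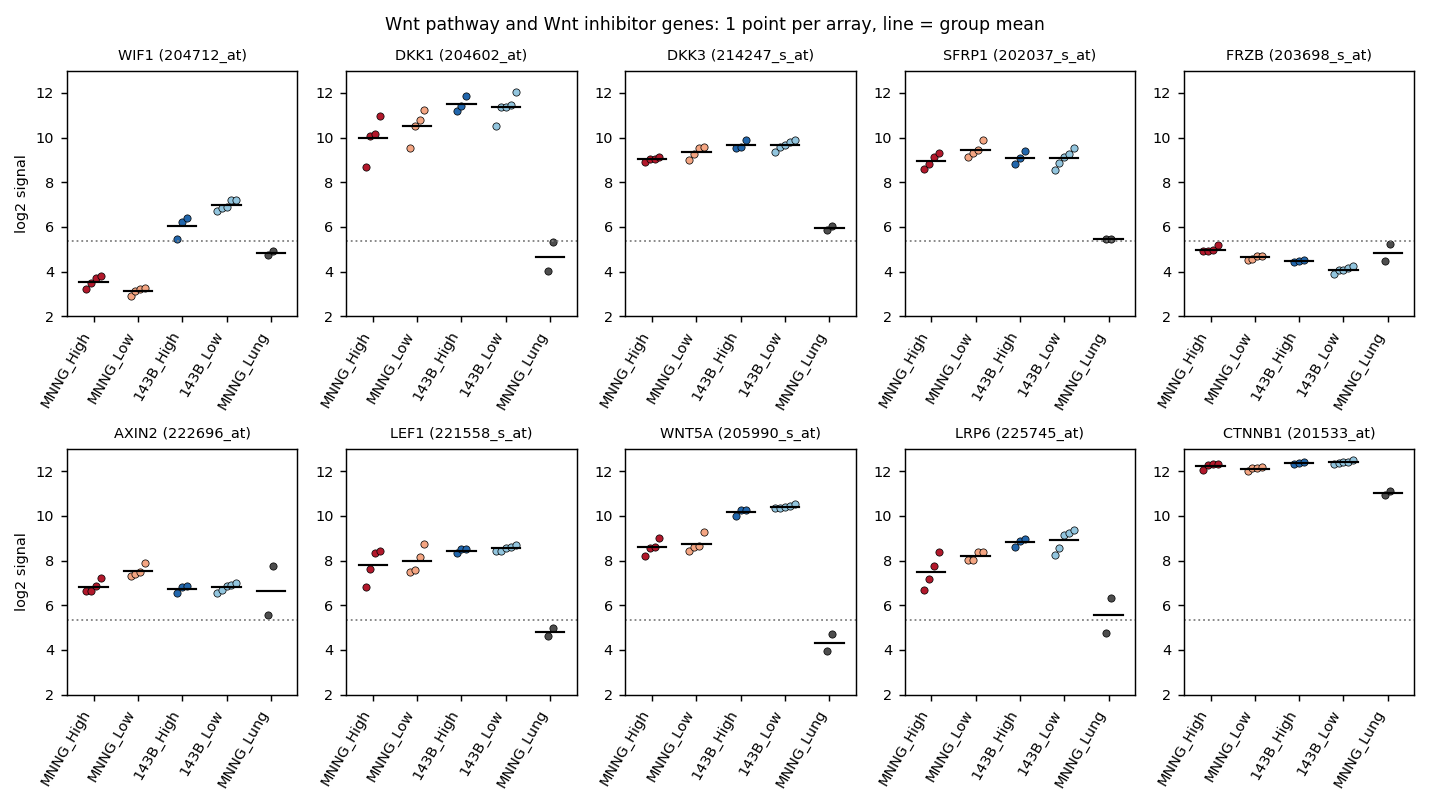
Log2 signal of the 10 genes on every array (y axis) in the 5 groups (x axis), with 1 point per array, a line at the group mean and a dotted line at 5.36, the signal a gene had to reach on 3 arrays to be tested. WIF1 lies above the dotted line on all 8 143B arrays and below it on the other 10, and DKK1, LEF1 and WNT5A lie above it on all 16 bone arrays and below it on both lung arrays.

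Of the 10 genes, 9 reached 5.36, the median of the whole table, on at least 3 arrays and were tested, and FRZB was not. In limma fits with Benjamini-Hochberg adjustment over 14418 genes, none of the 9 passed an adjusted p of 0.05 between MNNG_High and MNNG_Low, where 26.1% of all genes passed and 4 of the 9 had an unadjusted p under 0.05. None passed between 143B_High and 143B_Low, where 0.00694% of genes passed and 1 of the 9 had an unadjusted p under 0.05. Between the lines 3 of the 9 passed in Low cells (28.8% of all genes) and 5 of the 9 in High cells (36.1%). All of these were higher in 143B, a direction in which 14.4% and 21.4% of all genes passed. Groups did not overlap for 4 of the 9 in Low cells (38.3% of all genes) and 5 of the 9 in High cells (42.0%). Against MNNG_Low, 9 of the 9 passed in lung, where 87.0% of all genes did, 8 of them lower (51.9% of all genes). Against MNNG_High 8 of the 9 passed, where 82.4% did. The comparisons share groups and are not independent of each other. Counted over both directions, the shares of members called were near or below these backgrounds except in the High cells of the lines. The members called higher in 143B and lower in lung were a larger share than that of all genes in the same direction. Because the members were chosen with earlier results known, these larger shares are description only. Most tested members are also bright, and of all tested genes at 8 or more in MNNG_Low 92.9% read lower in lung. WIF1 met the signal filter through the 143B arrays alone, so it entered these counts by way of the difference between the lines.

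WIF1, which binds Wnt proteins outside the cell, lay above 5.36 on every 143B array and below it on every MNNG array. Its values were 6.72, 6.91, 7.19, 6.85 and 7.20 in 143B_Low (143B-1251 to 143B-1255 in order) and 6.22, 6.42 and 5.44 in 143B_High (143B-1253, then the pools 51&52 and 54&55). The MNNG values were 3.80, 3.51, 3.71 and 3.20 in High and 3.15, 3.24, 2.90 and 3.27 in Low (by tumor number in each, with MNNG-1231 first, then MNNG-1232, the next MNNG-1233, and MNNG-1235 last). Every 143B array thus lay above every MNNG array. The difference was 3.83 ± 0.18 (SE) in Low cells (5 and 4 arrays, limma adjusted p = 1.88e-11) and 2.47 ± 0.21 in High cells (3 and 4 arrays, adjusted p = 7.4e-08). WIF1 was open to testing only because the 143B arrays are high, so its p-values add little to this description, and because the MNNG side is dim the size is uncertain.

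Within 143B the 3 High arrays lay below all 5 Low arrays for WIF1, and the pool 54&55 was the lowest. Macrophage markers, at the ranges given above, and cell division markers (10.14 to 10.29 in High and 9.70 to 10.11 in Low) also did not overlap between the 143B fractions, and their part in the WIF1 values was not tested. The High minus Low difference was -0.95 ± 0.20, a 1.93-fold lower signal, with a 95% interval of -1.36 to -0.53. It had a p of 0.000144 and a limma adjusted p of 0.296 over all genes, so it was not called. In 143B-1253, the only 143B tumor with both fractions on separate arrays, High was lower by a difference of -0.97. With the tumor as a block the difference was -0.99 with an adjusted p of 0.0843, and with arrays weighted by their quality it was -0.91 with an adjusted p of 0.0131, a call in a fit where 1.39% of all genes passed. In MNNG the WIF1 values of the fractions overlapped, at 0.42 ± 0.19 higher in High (adjusted p = 0.106), and all of them are under 5.36. The High minus Low difference itself differed between the lines by -1.36 ± 0.28 (adjusted p = 0.294), which became a call only with array weights (-1.24, adjusted p = 0.0255, where 1.62% of all genes passed). No other tested member had an adjusted p under 0.540 for this difference between the lines, and 0.00694% of all genes passed it.

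DKK1, a secreted antagonist that occupies LRP6, read 8.67 or more on every bone tumor array. It read 10.15, 10.09, 8.67 and 10.99 in MNNG_High and 10.77, 10.52, 9.52 and 11.23 in MNNG_Low, in the same order of tumors. In 143B it read 11.43, 11.88 and 11.18 in High and 10.51, 12.04, 11.39, 11.44 and 11.39 in Low. MNNG-1233 was lowest and MNNG-1235 highest in both MNNG fractions, so the spread followed the tumor. High was below Low in 4 of 4 MNNG tumors, by differences of -0.62, -0.43, -0.85 and -0.25, while the groups overlapped (-0.54 ± 0.44, limma adjusted p = 0.338). In High cells DKK1 was 2.88-fold higher in 143B than in MNNG (1.53 ± 0.47, adjusted p = 0.0186) and the groups did not overlap. That call was lost without the 143B_High pool 51&52 (1.33, adjusted p = 0.0833) or without MNNG-1233 High (1.09, adjusted p = 0.0642). In Low cells the groups overlapped at a difference of 0.84 ± 0.42 (adjusted p = 0.146).

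DKK3, a secreted protein of the Dickkopf family whose action on Wnt depends on the cell, read 8.90, 9.03, 9.13 and 9.04 in MNNG_High and 9.58, 9.27, 9.55 and 8.99 in MNNG_Low. The 143B values were 9.91, 9.52 and 9.60 in High and 9.56, 9.37, 9.79, 9.68 and 9.90 in Low. All 143B_High arrays exceeded all MNNG_High arrays, by 0.66 ± 0.16 (limma adjusted p = 0.00469). This call was lost after a second quantile normalization (0.42, adjusted p = 0.0862), which forces all arrays to 1 distribution, and on the only tested DKK3 probe set not of type _s_at, 230508_at (0.43, adjusted p = 0.156). In Low cells the lines overlapped, at 0.31 ± 0.14 (adjusted p = 0.113).

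SFRP1 is a secreted decoy that resembles the Frizzled binding domain, and 2 of its 4 probe sets were higher in 143B_High than in MNNG_High. On the probe set that stands for the gene, SFRP1 differed little between the lines. It read 9.31, 9.11, 8.60 and 8.83 in MNNG_High, 9.89, 9.43, 9.30 and 9.14 in MNNG_Low, 9.40, 8.81 and 9.07 in 143B_High and 9.14, 8.54, 9.28, 8.85 and 9.54 in 143B_Low. The groups of the lines overlapped in both fractions, at -0.37 ± 0.20 in Low cells (adjusted p = 0.203) and 0.13 ± 0.23 in High cells (adjusted p = 0.676), both 143B minus MNNG. MNNG_High was below MNNG_Low in 4 of 4 tumors, at -0.47 ± 0.21 over the groups (limma adjusted p = 0.101). FRZB, a related decoy, stayed under 5.36 on all 18 arrays with each of its 4 probe sets, and its brightest probe set ranged from 3.91 in 143B_Low to 5.22 on the lung array Mix. Fitted without the filter on dim genes, FRZB was lower in 143B, at -0.54 in Low cells (adjusted p = 0.00578) and -0.51 in High cells (adjusted p = 0.0188), and 21.5% and 27.9% of all genes passed in those fits.

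WNT5A, a ligand best known for β-catenin-independent signaling, was higher in 143B than in MNNG in both fractions. The 143B_High pools read 10.27 and 10.25, with 143B-1253 below them and a group mean of 10.17. The signals were 10.34, 10.52, 10.34, 10.45 and 10.41 in 143B_Low, and those of the MNNG arrays were 8.19, 8.61, 8.57 and 9.03 in High and 8.43, 8.63, 9.26 and 8.67 in Low. The lines did not overlap. WNT5A was 3.17-fold higher in 143B_Low than in MNNG_Low (1.67 ± 0.19, limma adjusted p = 1.67e-06) and 2.98-fold higher in 143B_High than in MNNG_High (1.57 ± 0.21, adjusted p = 1.84e-05). Its second probe set, 213425_at, gave 1.50 ± 0.20 and 1.76 ± 0.23 in a fit of 26556 single-gene probe sets, in which 27.1% and 32.7% of probe sets passed. Within 143B all High arrays lay below all Low arrays for WNT5A, at -0.24 ± 0.20 (adjusted p = 0.999), and WIF1 and WNT5A were the 2 of 9 tested members whose 143B fractions did not overlap, against 11.9% of all genes.

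LRP6, the co-receptor that Wnt brings together with Frizzled and that DKK1 blocks, read 7.16, 7.77, 6.70 and 8.38 in MNNG_High and 8.03, 8.02, 8.38 and 8.37 in MNNG_Low. In 143B it read 8.59, 8.89 and 8.97 in High and 9.15, 9.39, 8.57, 9.23 and 8.24 in Low. The High cells of the lines did not overlap, and LRP6 was 2.48-fold higher in 143B (1.31 ± 0.37, limma adjusted p = 0.0115). After a second quantile normalization that difference was 1.07 with an adjusted p of 0.0564. The Low cells overlapped at 0.71 ± 0.33 (adjusted p = 0.118). The probe set 34697_at of LRP6 was higher in 143B in both fractions, at 0.48 ± 0.13 in Low (adjusted p = 0.00921) and 0.57 ± 0.15 in High (adjusted p = 0.00721).

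**Figure D2:**
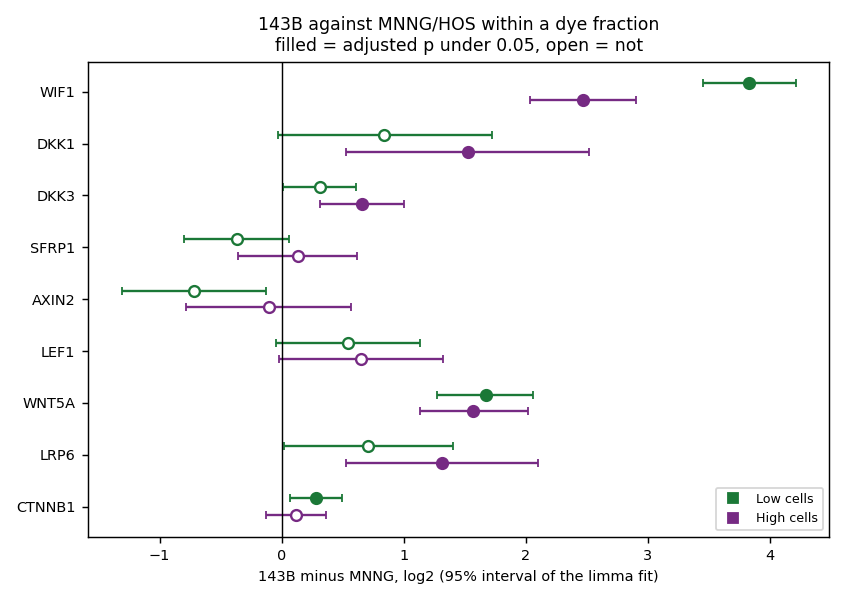
Difference between the lines, 143B minus MNNG in log2 (x axis), for the 9 tested genes (y axis) in Low cells (5 and 4 arrays) and High cells (3 and 4 arrays), with the 95% interval of the limma fit as bars and filled points where the adjusted p was under 0.05. WIF1 at 3.83 and 2.47 and WNT5A at 1.67 and 1.57 are filled in both fractions, and CTNNB1 is filled only in Low cells, at 0.28.

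AXIN2, a scaffold of the destruction complex and a transcript that β-catenin raises as negative feedback, was the only tested member whose MNNG fractions did not overlap, against 29.8% of all genes. Its main probe set read 6.65, 6.84, 6.65 and 7.21 in MNNG_High and 7.39, 7.48, 7.88 and 7.33 in MNNG_Low. High was lower in 4 of 4 tumors. The difference was -0.68 ± 0.30 with a limma adjusted p of 0.0909. With the lung arrays, which were 5.57 and 7.74 for AXIN2 (SD 1.53), left out of the fit, it had an adjusted p of 0.00391, and 44.4% of all genes passed in that fit. In 143B the fractions overlapped, from 6.54 to 6.84 in High and from 6.57 to 6.98 in Low. MNNG_Low stood above all 143B_Low arrays, at -0.72 ± 0.28 for 143B minus MNNG (adjusted p = 0.0654, and 0.000618 without the lung arrays, where 37.2% of genes passed). Between the MNNG fractions the other AXIN2 probe sets went the opposite way. They were higher in High by 0.39 ± 0.15 (222695_s_at), 0.34 ± 0.15 (224176_s_at) and 0.44 ± 0.15 (224498_x_at). The lower AXIN2 signal in MNNG_High thus rests on the main probe set alone.

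CTNNB1, the signal-carrying protein of the canonical branch, had the smallest range in bone tumors. It ran from 12.07 to 12.33 in MNNG_High, 11.99 to 12.19 in MNNG_Low, 12.33 to 12.41 in 143B_High and 12.32 to 12.51 in 143B_Low. All 143B_Low arrays exceeded all MNNG_Low arrays, by 0.28 ± 0.10 (limma adjusted p = 0.0438). Leaving out any single bone array of the Low groups or of 143B_High took that adjusted p over 0.05 (to 0.143 without MNNG-1231 Low), and it was 0.0505 without the filter on dim genes. Of the other CTNNB1 probe sets in Low cells, 1554411_at went the opposite way, at -0.55 ± 0.25 (limma adjusted p = 0.115). The probe set 223679_at went the same way, at 0.51 ± 0.20 (adjusted p = 0.063). LEF1, the DNA-binding partner of β-catenin, varied by tumor in MNNG, from 6.82, 7.61, 8.32 and 8.44 in High and 7.49, 7.59, 8.75 and 8.18 in Low. It was tight in 143B, at 8.32 to 8.51 in High and 8.42 to 8.71 in Low. MNNG-1231 and MNNG-1232 were the low ones in both MNNG fractions, and LEF1 passed no test in bone tumors (adjusted p of 0.116 to 0.999 over those 4 comparisons).

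**Figure D3:**
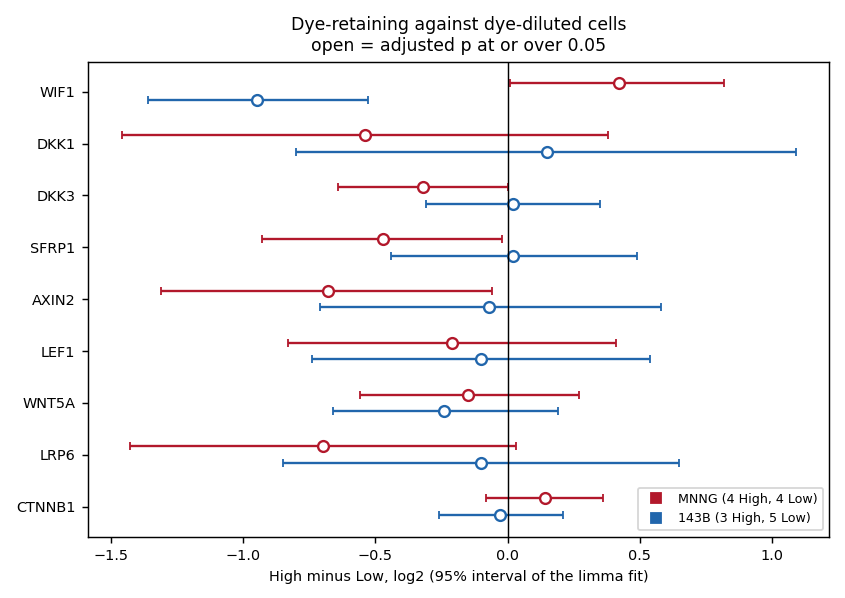
High minus Low difference in log2 (x axis) for the 9 tested genes (y axis) in MNNG (4 High and 4 Low arrays) and 143B (3 High and 5 Low arrays), with the 95% interval of the limma fit as bars. All points are open because no adjusted p was under 0.05, and WIF1 in 143B, at -0.95, is the point farthest from 0.

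Of the 9 tested members, 7 had a negative High minus Low difference in MNNG, with a median of -0.32, and the median over all 14418 genes was -0.19.

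In lung metastases the secreted inhibitors DKK1, DKK3 and SFRP1, the ligand WNT5A and LEF1 read far lower than in bone tumors on the probe set that stands for each gene. The co-receptor LRP6 was lower on 1 of its 3 probe sets only, and its mean over probe sets was at -0.25 against MNNG_Low (limma adjusted p = 0.329) and 0.05 against MNNG_High. DKK1 read 5.31 and 4.04 on the lung arrays 1233 and Mix, WNT5A 3.93 and 4.70, and LEF1 4.63 and 4.98, all under 5.36. SFRP1 read 5.44 on both, DKK3 5.85 and 6.02, and LRP6 4.76 and 6.34. No lung array of these 6 genes reached the lowest MNNG bone array, although for LRP6 the array Mix came close to it (6.70). Such separation was common, since groups did not overlap for 85.7% of all genes in lung against MNNG_Low and 77.6% against MNNG_High. The differences from MNNG_Low (2 and 4 arrays) were -5.83 ± 0.54 for DKK1 (limma adjusted p = 8.29e-09), -4.43 ± 0.24 for WNT5A (5.05e-12), -3.99 ± 0.26 for SFRP1 (7.49e-11), -3.41 ± 0.18 for DKK3 (4.72e-12), -3.20 ± 0.36 for LEF1 (1.37e-07) and -2.65 ± 0.42 for LRP6 (1.1e-05). Against MNNG_High, which shares the lung arrays, the same genes gave -5.30, -4.28, -3.52, -3.09, -2.99 and -1.96, all called.

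These lung differences followed a pattern of the whole array, in which bright genes read lower and dim genes higher. Of the 5977 genes at 8 or more in MNNG_Low, 92.9% read lower in lung with a median of -3.01, and of the 1980 genes under 5.36, 4.9% did, with a median of 1.52. Among genes within 0.5 log2 of its own MNNG_Low level, DKK1 lay below the lower quartile of the lung difference (-4.81, median -3.98), as did WNT5A (-3.57, median -2.48) and LEF1 (-2.66, median -1.45). SFRP1 (quartiles -4.14 and -1.93), DKK3 (-4.05 and -1.87) and LRP6 (-2.89 and -0.63) lay between the quartiles of their neighbors. This set of neighbors was chosen after the values were seen and carries no test. The cell division markers averaged 5.72 to 6.27 per array in lung and 9.05 or more on every bone array, and the part of marker levels and of the narrower signal range in the lung differences was not tested.

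CTNNB1 read 10.94 and 11.12 in lung, below every bone array, at -1.09 ± 0.13 against MNNG_Low (limma adjusted p = 2.79e-07). This is above the upper quartile of -2.59 among genes of like brightness, and a second quantile normalization turned the direction, to 0.51 (adjusted p = 0.00517). AXIN2 split the lung arrays at 5.57 (1233) and 7.74 (Mix), on either side of all MNNG bone arrays but MNNG-1233 Low, and its call against MNNG_Low (-0.87 ± 0.36, adjusted p = 0.0338) turned to 0.22 (adjusted p = 0.396) without lung 1233. Against MNNG_High it was -0.18 ± 0.36 (adjusted p = 0.645). WIF1 read 4.93 and 4.76 in lung, above all MNNG bone arrays and below all 143B arrays, at 1.70 ± 0.23 against MNNG_Low (adjusted p = 1.8e-06). Both sides of that difference are under 5.36, and 29 genes of like dimness had a median of 0.89.

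**Figure D4:**
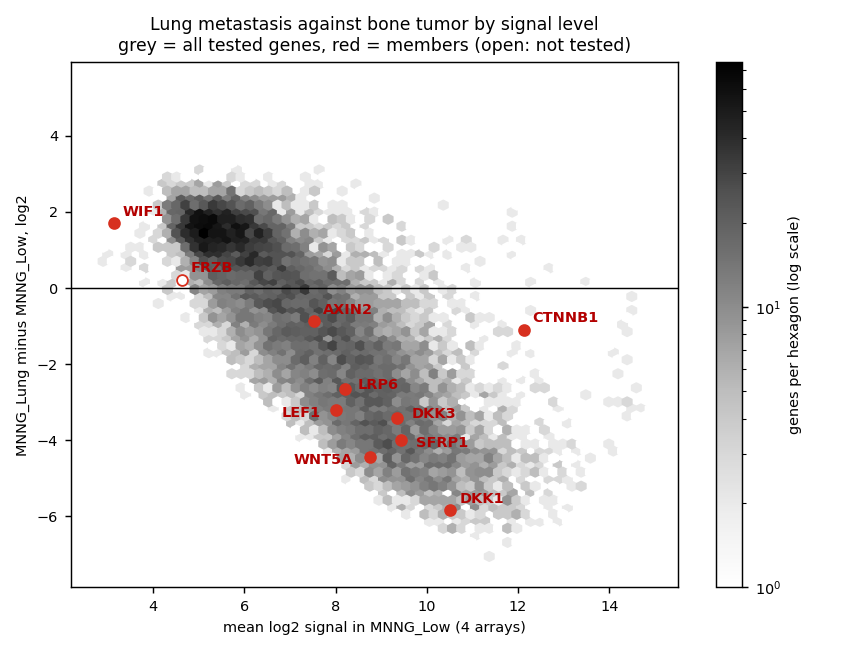
Lung minus MNNG_Low difference in log2 (y axis) against the mean log2 signal in MNNG_Low (x axis) for all 14418 tested genes, shaded by the number of genes per hexagon on a log scale, with the 10 genes in red (FRZB, not tested, as an open point). The cloud slopes down from left to right, DKK1, WNT5A and LEF1 lie along its lower side, and CTNNB1 at -1.09 lies above most genes of its brightness.

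The probe sets of a gene did not always move together, and where they differ the gene's direction is that of its brightest probe set. Of the 31 probe sets 23 passed the signal filter. In lung against MNNG_Low the 3 other AXIN2 probe sets rose by 1.34, 1.69 and 1.74 while the main one, 222696_at, was at -0.87. For LRP6, 205606_at rose by 1.64 ± 0.27 and 34697_at was at 0.28 ± 0.17 (adjusted p = 0.133) against -2.65 for 225745_at. CTNNB1 1554411_at rose by 1.11 ± 0.32 while the other 2 probe sets gave -1.09 and -1.17, and SFRP1 228413_s_at rose by 1.33 while its other 3 gave -0.93, -1.82 and -3.99. LEF1 221557_s_at was at 0.21 ± 0.19 (adjusted p = 0.317) against -3.20 for 221558_s_at. Both WNT5A probe sets (-4.43 and -4.37) and all 3 tested DKK3 probe sets (-3.41, -2.74 and -1.48) were lower in lung. In this limma fit of 26556 probe sets, 84.4% passed in lung against MNNG_Low.

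Some dimmer probe sets passed between the MNNG fractions where the main one did not, in a fit in which 25.5% of probe sets passed. DKK3 202196_s_at was lower in MNNG_High at -0.75 ± 0.19 (limma adjusted p = 0.0147), WNT5A 213425_at at -0.63 ± 0.21 (0.0385) and SFRP1 202036_s_at at -0.60 ± 0.20 (0.0359). AXIN2 224498_x_at was at 0.44 ± 0.15 (0.0438), but its means of 5.20 and 4.76 are both under 5.36, and it met the filter only through both lung arrays and 1 MNNG_High array. Between the lines in High cells SFRP1 202035_s_at and 202036_s_at were higher in 143B at 0.90 ± 0.27 (0.0169) and 0.64 ± 0.21 (0.0297), and CTNNB1 1554411_at was lower at -0.79 ± 0.28 (0.0406) where 223679_at was higher at 0.62 ± 0.23 (0.041).

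**Figure D5:**
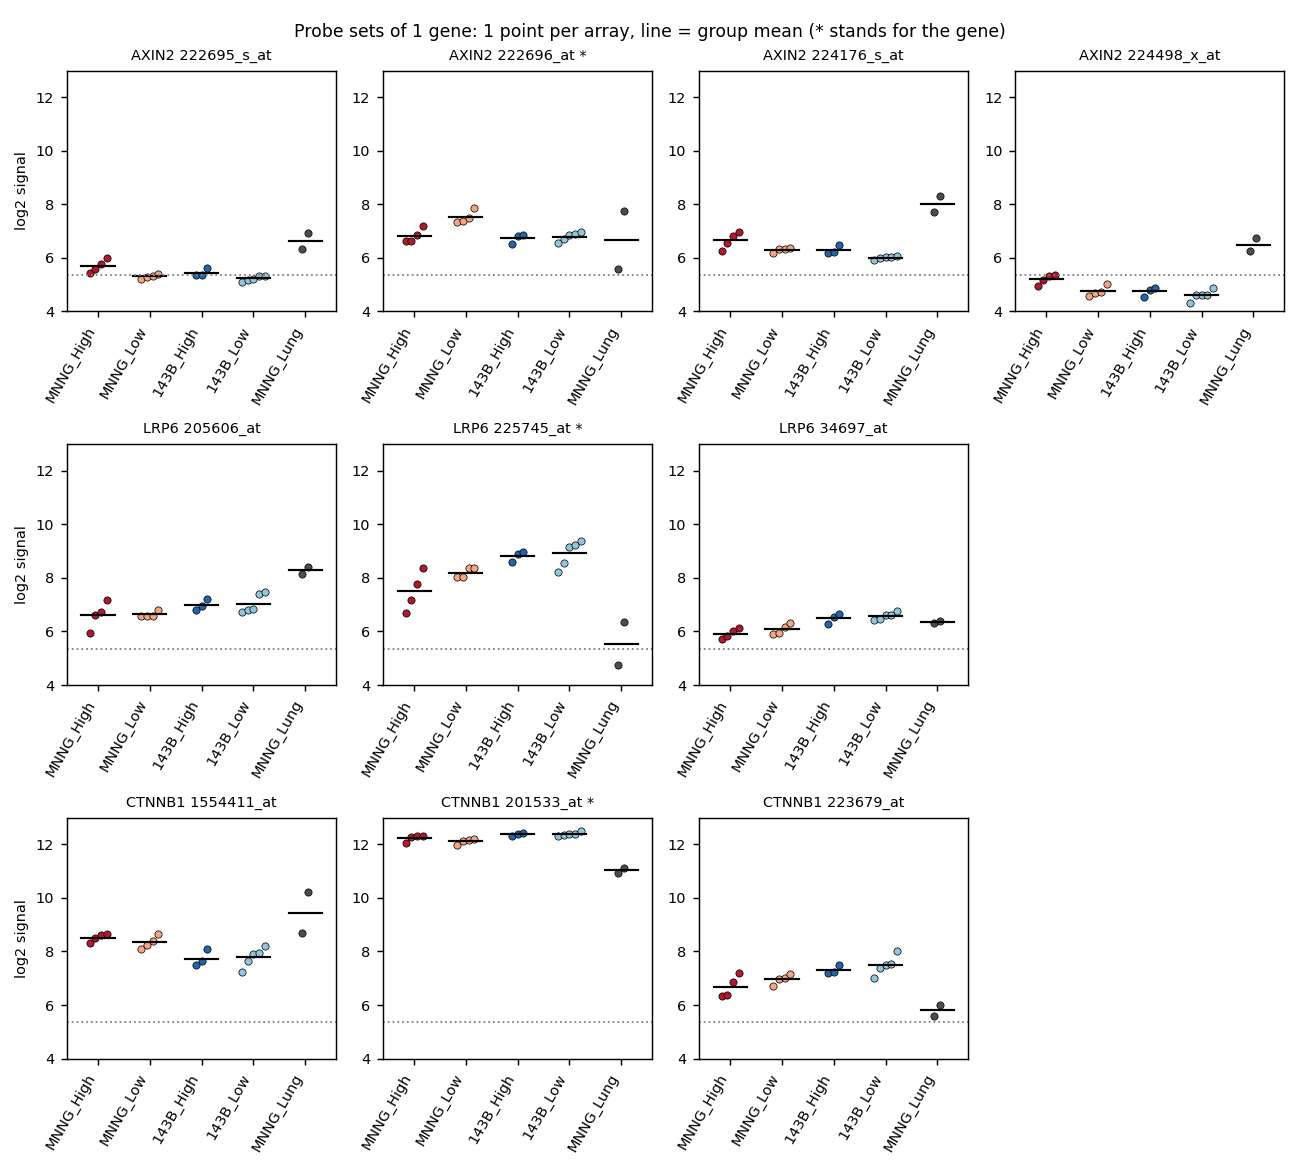
Log2 signal on every array (y axis) in the 5 groups (x axis) for each probe set of AXIN2, LRP6 and CTNNB1, with a line at the group mean, a dotted line at 5.36 and a star on the probe set that stands for the gene. In lung the starred probe sets of LRP6 and CTNNB1 fall to 5.55 and 11.03 on average while LRP6 205606_at and CTNNB1 1554411_at stand at 8.28 and 9.45, and the other 3 AXIN2 probe sets are highest in lung.

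Whether the MNNG fractions differ in these genes also depended on how the arrays were matched. Tumor numbers pair High and Low arrays, and a fit of the bone arrays with tumor as a block called 4 of the 9 members, all lower in MNNG_High, against 55.8% of all genes. On the probe set that stands for each gene, they were AXIN2 (limma adjusted p = 0.0043), SFRP1 (0.0232), LRP6 (0.0291) and DKK3 (0.0422). The sample labels end in 1 of 3 date-like tags, and the Low arrays of MNNG-1232, MNNG-1233 and MNNG-1235 carry another tag than all MNNG_High arrays, MNNG-1231 Low and the lung arrays. With the tag as a covariate no member was called, and 0.0208% of all genes were. Within the shared tag, where MNNG_Low is the single array of MNNG-1231, AXIN2 was at -0.55, SFRP1 at -0.92, DKK3 at -0.55, LRP6 at -0.53 and WIF1 at 0.41, High minus Low. All 143B arrays carry the third tag, so tag and line cannot be told apart. The macrophage markers, at the ranges given above, did not overlap between MNNG_High and MNNG_Low either, and the same held for osteoclast (5.74 to 6.06 and 5.34 to 5.38), endothelial (4.79 to 5.08 and 4.51 to 4.70), skeletal muscle (5.01 to 5.37 and 4.77 to 4.88), lung epithelium (5.58 to 6.03 and 5.47 to 5.53) and lymphocyte markers (4.91 to 5.45 and 4.85 to 4.90). All these were higher in High, and cell division markers were lower (9.05 to 9.44 against 9.46 to 9.76). The macrophage, endothelial, skeletal muscle and lymphocyte averages lay under 5.36 in MNNG_Low, and the endothelial ones in MNNG_High too. These are dim lists, while the cell division list is bright. MNNG_High also had the narrower signal range, given above, and its part in these marker levels was not tested. The 3′ minus 5′ signal of GAPDH, a sign of RNA quality, was 0.50 to 0.75 in MNNG_High and 0.34 to 0.41 in MNNG_Low. With it as a covariate no member was called between the MNNG fractions, as in the fit without it. That count is given without the share of all genes in the same fit, so nothing is read from it. The part of the marker lists in these differences was not tested.

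Beyond these 10, a list of Wnt pathway genes held 100 others, of which 81 were tested. Between the MNNG fractions 10 of the 81 (12.3%) were higher in High and 4 (4.94%) lower, against 10.6% and 15.5% of all genes. The ligands WNT4 (0.67 ± 0.15) and WNT6 (0.64 ± 0.16), the R-spondin RSPO4 (0.80 ± 0.19) and its receptor LGR4 (0.62 ± 0.16) were among those higher, and the destruction complex scaffold APC (-0.76 ± 0.24), its partner BTRC (-0.59 ± 0.16), the GSK3 inhibitor FRAT1 (-0.53 ± 0.16) and the ciliary protein INVS (-0.86 ± 0.16) were lower. The MNNG_Low means of WNT4 (5.15) and RSPO4 (5.07) are under 5.36, so the sizes of their differences are uncertain. With the date tag as a covariate, 0.0208% of all genes passed between the MNNG fractions. The values of these named genes in that fit are not given here. The part of the narrower signal range of MNNG_High in their differences was not tested. None of the 81 passed between the 143B fractions, where 0.00694% of all genes passed.

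In Low cells 13 of the 81 (16%) were higher and 9 (11.1%) lower in 143B than in MNNG, against 14.4% and 14.5% of all genes. In High cells 12 (14.8%) were higher and 11 (13.6%) lower, against 21.4% and 14.7%. These shares lay near or below the background. Of 16 tested receptors and co-receptors, a list that includes the member LRP6, 6 were higher and 1 lower in 143B_Low. Of all genes 14.4% and 14.5% were, and the list median was 0.29 against -0.04 over all genes. The Frizzled receptor FZD3 was higher by 2.37 ± 0.21 in Low cells and 2.43 ± 0.24 in High cells, and FZD5 by 1.22 ± 0.19 and 1.55 ± 0.22. FZD2 was higher in both fractions too, by 1.23 ± 0.15 in High cells. RYK, a receptor for WNT5A, was higher by 0.74 ± 0.11 and 0.88 ± 0.13. Among inhibitors DKK2 (-2.51 ± 0.62) and SFRP2 (-1.14 ± 0.20) were lower in 143B_Low, opposite to WIF1, and so was the R-spondin RSPO3 (-1.12 ± 0.21). Their 143B_Low means of 3.33, 4.28 and 3.86 are under 5.36, so these sizes are uncertain. For RSPO3 the MNNG_Low mean of 4.98 is under it too. In lung 35 of the 81 (43.2%) were higher and 29 (35.8%) lower than in MNNG_Low, against 35.1% and 51.9% of all genes. The Wnt secretion factor WLS (-5.39 ± 0.28), FZD7 (-4.73 ± 0.29) and TCF7L2 (-4.96 ± 0.31) were lower while RNF43, which removes Frizzled from the surface, was higher (2.26 ± 0.17). In MNNG_Low WLS, FZD7 and TCF7L2 were bright (11.56, 10.26 and 10.67) and RNF43 was dim (4.65). Their directions are those of the pattern of the whole array, in which bright genes read lower in lung and dim genes higher.

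As a description, the tested genes whose log2 signal followed a member most closely over the 18 arrays were found by Pearson correlation. For WIF1 these were SFTA1P (0.982), PASD1 (0.972) and CECR2 (0.968), and over the 16 bone arrays the values were 0.983, 0.974 and 0.969. For WNT5A they were TUSC1 (0.994), IGF2BP2 (0.993) and CD46 (0.992), at 0.976, 0.966 and 0.962 over bone. For DKK1 they were IGF2BP3 (0.987), DIPK2A (0.983) and NFKBIZ (0.982), at 0.930, 0.917 and 0.871. The points share arrays and scaling, and the groups set much of each correlation.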

How the data were processed

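The deposited table gives 1 log2 signal per probe set and array, computed by the authors with RMA (background correction, quantile normalization and probe summary), per the submitters' processing notes. Which arrays were normalized together is not given in the sources used. Groups and tumor numbers come from the sample titles. The members and all gene lists were chosen with earlier results of these data known.

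Of 54675 probe sets, 41097 had 1 annotated gene, 1801 several and 11777 none, and the last 2 kinds were not used. A gene was represented by its single-gene probe set of highest mean signal. Genes at 5.36 or more on at least 3 arrays were tested (14418 genes). A single limma fit (limma 3.58.1, R 4.3.3) over 18 arrays held 5 group means, with eBayes and Benjamini-Hochberg adjustment over all genes for each of 7 comparisons, and a gene was called at an adjusted p under 0.05. Differences are given ± the standard error of the fit. No detection call was used, so a group mean under 5.36 gives an uncertain size. The precision is limited by the 2 to 5 arrays per group.

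Named genes were the 10 members, up to 4 called genes of smallest p from each Wnt list per comparison, and for likeness the 3 most correlated genes. Alternatives were no filter, other probe set choices, median centering, a second quantile normalization, fits without lung or other groups, array weights, a covariate for the date tag or for the 3′ to 5′ difference of GAPDH, the tumor as a block, and each array left out in turn. The values within 1 date tag were added after the data were seen. Tumor numbers pair High and Low samples of 1 tumor. Deviations from group means of same-numbered arrays correlated at 0.494, 0.370, 0.299 and 0.579 in MNNG and 0.542 in 143B tumor 1253. The pools, read as tumors 1251 with 1252 and 1254 with 1255, gave -0.192 and 0.529, and 0.243 and 0.063, with those Low arrays.

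The fit was tested on simulated data for MNNG_High against MNNG_Low. It recovered 83 of 100 genes shifted by 1 log2 and 100 of 100 shifted by 2. Among the unshifted rest of the 14418 genes it made 12 false calls. The simulated arrays were independent and had the average spread of the bone groups. They held no lung spread, tumor pairing or date tag, so these rates need not hold for the real arrays.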

Additional observations from a re-analysis of the deposited data

Results flagged for a closer look

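In MNNG_High the CTNNB1 signal of MNNG-1231, 12.07, stood apart from the other 3 arrays, which lay between 12.29 and 12.33. It was the 1 outlying array among 30 sets of member values looked at by gap over range in groups of 4 or 5, and chance gives about 1 in 20.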

How the results depend on the processing

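Outside the fits that leave out 1 array, 632 of 706 values kept their direction and side of the threshold, 27 gained a call, 16 lost one and 31 turned. Among the leave-one-out values 1087 of 1134 kept both, 9 gained, 15 lost and 23 turned. The cause of these changes was not tested. The lung differences of DKK1, DKK3 and WNT5A, and the line differences of WNT5A, kept direction and call under every alternative run. For the fit of single probe sets this covers DKK3 and WNT5A probe sets over the filter. The line differences of WIF1 kept both too. WIF1 met the filter through the 143B arrays alone, so its kept calls add no support. The lung differences of SFRP1 and LEF1 kept both for the probe set that stands for the gene and the mean over probe sets. SFRP1 228413_s_at (1.33) and LEF1 221557_s_at (0.21, not called) did not follow in lung against MNNG_Low. Neither gene has a value without _s_at probe sets. Depth limits FRZB and the MNNG and lung levels of WIF1, which lie under 5.36. When 1 lung array is left out, the remaining one is taken to vary as much as arrays of the other groups.

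The number of members called between MNNG_High and MNNG_Low was 0. It was 1 without _x_at and _s_at probe sets (28.1% of all genes called), 2 with median centering (32.9%), 1 without the lung arrays (44.4%), 1 with only the groups compared (16.1%), 2 with array weights (39.3%) and 4 with the replicate block (tumor; 55.8%). Leaving out 1 array gave 0 to 2, and 1376 to 6407 of all genes. Array weights gave 1 call between the 143B fractions (1.39%) and 1 for the difference between lines (1.62%). Between the lines, Low cells had 5 calls with only the groups compared (45.3%), 9 with array weights (48.7%) and 2 to 4 with 1 array left out (3445 to 5361 of all genes). High cells had 3 after a second quantile normalization (27.4%) and 4 to 6 with 1 array left out (3465 to 6807 of all genes). The block was fitted only for High minus Low in each line and the difference between lines, where no member was called without it. It called no member between the 143B fractions (0.0486% of all genes) or for that difference (0.0347%), and the line and lung calls were not fitted with it.

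Directions turned as follows, in log2. With the mean over probe sets, MNNG High minus Low was 0.12 for AXIN2 and 0.03 for LEF1, and 143B High minus Low was 0.14 for AXIN2, -0.05 for DKK3 and 0.06 for LEF1. The same setting gave 0.08 for WNT5A in the difference between lines and -0.02 for CTNNB1 in High cells of the lines. It gave 0.98 for AXIN2 in lung against MNNG_Low, and 0.85 for AXIN2 and 0.05 for LRP6 against MNNG_High. Without _x_at and _s_at probe sets, DKK3 was -0.02 between the 143B fractions and -0.05 in Low cells of the lines, and WNT5A was 0.26 in the difference between lines. Median centering gave -0.02 for DKK3 and -0.02 for SFRP1 between the 143B fractions.

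A second quantile normalization moved the median of all genes from -0.19 to 0.01 between the MNNG fractions and from -0.64 to -0.11 in lung against MNNG_Low, and median centering moved them to -0.30 and -1.05. It gave 0.07 for LEF1 and 0.16 for WNT5A between the MNNG fractions, 0.01 for CTNNB1 in 143B and -0.10 for LEF1 in the difference between lines. It gave -0.10 for SFRP1 in High cells of the lines, 0.51 for CTNNB1 in lung against MNNG_Low, and 0.17 for AXIN2 and 0.24 for CTNNB1 against MNNG_High. Array weights gave -0.01 for SFRP1 in High cells of the lines. The date tag, as a covariate or within 1 tag, gave 0.31 for LEF1 and 0.17 for WNT5A between the MNNG fractions, and the covariate gave -0.41 for LEF1 in the difference between lines. The replicate block gave -0.01 for DKK3 and -0.02 for SFRP1 in 143B.

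With 1 array left out, MNNG High minus Low ran from -0.42 to 0.12 for LEF1 and -0.29 to 0.02 for WNT5A. In 143B the ranges were -0.12 to 0.03 for AXIN2, -0.04 to 0.00 for CTNNB1, -0.07 to 0.32 for DKK1, -0.10 to 0.10 for DKK3, -0.27 to 0.02 for LRP6 and -0.13 to 0.16 for SFRP1. The difference between lines ran from -0.22 to 0.32 for LEF1 and -0.26 to 0.05 for WNT5A. In High cells of the lines the ranges were -0.02 to 0.27 for SFRP1 and -0.17 to 0.02 for AXIN2. AXIN2 ran from -1.95 to 0.22 in lung against MNNG_Low and from -1.27 to 0.90 against MNNG_High, where lung 1233 decided the sign.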
